A study of Mus musculus with 4 samples.

Results

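Zfp followed by a number is the mouse name of a large class of zinc finger genes, and 53 of the 6352 transcripts in a table of ribosome footprints at translation start sites carried such a symbol. They were chosen by symbol alone, after the transcript identifiers had been joined to the gene symbols given with the study, and each of the 53 transcripts belonged to a different gene. The footprints came from primary cultured cortical neurons of mice, treated with harringtonine at 5 µg/ml for 3 min before lysis. Harringtonine stops ribosomes as they begin a coding sequence, so that footprints pile up at start sites. There were 4 libraries, 1 for each condition: Ltn1 KO neurons titled Ttc3 RNAi (library code SC), Ltn1 KO neurons titled Control RNAi (code TTC), WT neurons titled Ttc3 RNAi (code SC) and WT neurons titled Control RNAi (code TTC). Ltn1 encodes an E3 ligase that ubiquitinates nascent chains on stalled ribosomes, and the study asked how loss of Ltn1 and knockdown of Ttc3, another E3 ligase gene, change translation initiation.

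The code letters and the titles disagree, since SC would spell scramble, the control RNAi of the study, and TTC would spell Ttc3 RNAi. The titles were followed, and the libraries are called KO SC, KO TTC, WT SC and WT TTC so that each value can be traced. Which of them is right was not settled here, and which RNAi the SC and TTC libraries had is therefore open to doubt. The Ttc3 start site had 2, 0, 3 and 0 reads in KO SC, KO TTC, WT SC and WT TTC. The Ltn1 start site had 37, 0, 10 and 2 reads in the same order. By the exact binomial test described below, KO SC was higher there than WT SC (adjusted p 0.0300) and than KO TTC (adjusted p 5.3e-12). KO TTC and WT TTC did not pass that test (adjusted p 0.335). Which part of the gene the KO allele lacks is not stated in the sources used here, so reads at this site do not check the genotype label. Neuron markers were plentiful, with all 13 of 13 listed and a summed level of 1982 to 2270 RPM in a library (RPM, the reads at a site scaled to the total reads of its library). Microglial and endothelial markers (9 and 5 genes) were not among the transcripts of the table.

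Most Zfp proteins carry fingers of the C2H2 type, in which 2 cysteines and 2 histidines hold a zinc ion and the finger tip reads DNA or RNA. A large class also carries a KRAB domain, which recruits the corepressor Trim28 and with it histone methyltransferases to silence transposons and imprinted loci. The family name covers other roles too, among them splicing, ribosome assembly and ubiquitin ligation. The finger type of the members was not checked here. Genes of the KRAB class are generally expressed at low levels.

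The Zfp start sites were read thinly. Each library held 1460425 to 3655827 reads in all, of which 6.06% to 6.85% fell on the listed start sites, and 1 read was worth 0.274 to 0.685 RPM. The Zfp genes together had 313, 447, 263 and 171 reads in KO SC, KO TTC, WT SC and WT TTC, which is 0.193%, 0.183%, 0.197% and 0.171% of the reads on listed sites. Their median levels in these libraries were 1.12, 1.37, 1.43 and 0.685 RPM, against 2.62, 3.01, 2.86 and 2.74 RPM over all transcripts. In reads the Zfp medians were 3, 5, 3 and 1. The mean level of a member was 2.21 to 2.37 RPM in a library, and that of all transcripts was 9.54 to 10.8 RPM. Levels are RPM at a single start site and were not divided by length.

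Members often had no read at all. Of the 53 members, 15, 18, 21 and 24 (28.3%, 34.0%, 39.6% and 45.3%) were listed at 0 in KO SC, KO TTC, WT SC and WT TTC. Over all transcripts the share at 0 was 22.2%, 19.1%, 25.2% and 28.4% in the same order of libraries. KO TTC, the deepest library, thus had the fewest zeros over the whole table, yet more Zfp zeros than the shallower KO SC. With every library thinned to the 1460425 reads of WT TTC, the Zfp share at 0 was 35.4%, 38.4%, 41.6% and 45.3% in KO SC, KO TTC, WT SC and WT TTC, against 26.6%, 24.5%, 27.6% and 28.4% of all transcripts. The members thus stayed above the whole table at equal total reads, and the part that their lower level has in this was not tested.

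**Figure D1:**
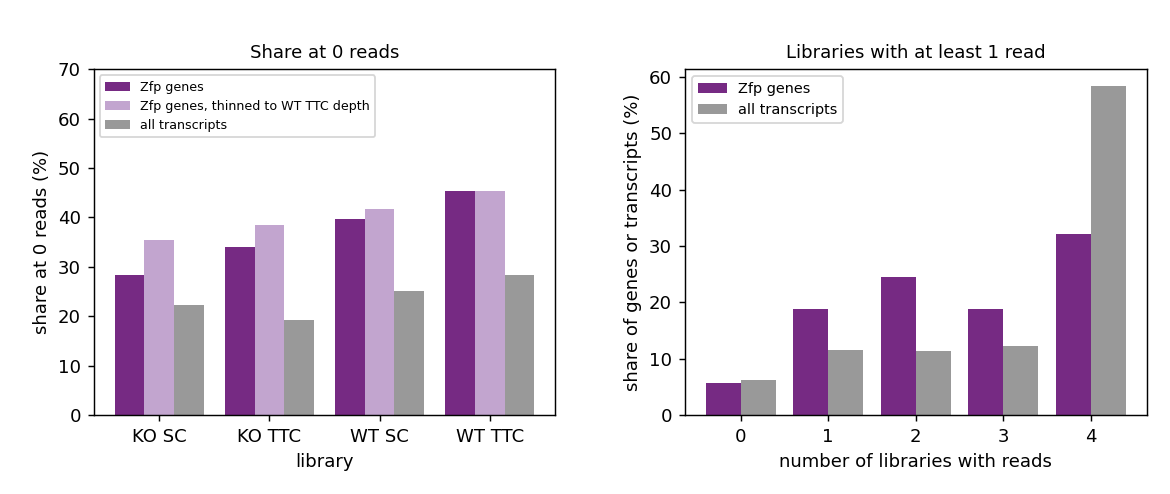
Left, share of genes listed at 0 reads (%) in each library, for the 53 Zfp genes as deposited, for the same genes thinned to the depth of WT TTC, and for all 6352 transcripts. Right, share of genes (%) by the number of libraries with at least 1 read. The Zfp bars at 0 reads run from 28.3% to 45.3% and stand above the bar of all transcripts in each library, and 32.1% of Zfp genes against 58.5% of all transcripts had reads in all 4 libraries.

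Only 17 of 53 members (32.1%) had reads in all 4 libraries, compared with 58.5% of all transcripts. After thinning the shares were 30.2% and 54.8%. A further 10 members had reads in 3 libraries (18.9%, against 12.3% of all transcripts), 13 in 2 libraries (24.5% against 11.4%) and 10 in 1 library (18.9% against 11.6%). The share without a read anywhere was 5.66% against 6.25% of all transcripts, and these 3 members were Zfp451, a SUMO ligase gene, Zfp655 and Zfp770. Other zinc-binding families of the table were small. Of 8 Klf and Sp genes 3 (37.5%) had reads in all 4 libraries, of 7 Zc3h genes with CCCH fingers 3 (42.9%), of 6 Zbtb genes 2, and of 10 Zdhhc palmitoyltransferase genes 2 (20.0%).

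Zeros in this table were more frequent than read counting gives, for Zfp genes and for the table as a whole. For each library, the reads of a transcript in the other 3 libraries, scaled by depth, gave the number of reads to expect. In KO SC 26 members were expected at 5 or more reads and 3 of them (11.5%) were listed at 0. In KO TTC this held for 6 of 27 (22.2%), in WT SC for 3 of 20 (15.0%) and in WT TTC for 3 of 13 (23.1%), where Poisson counting alone gives at most 0.0262 such zeros per library. Over all transcripts 5.82%, 5.72%, 5.94% and 4.60% of those expected at 5 or more reads were at 0 (133 to 235 transcripts a library, where counting gives at most 1.85). Ribosomal protein genes were seldom among them: of those expected at 5 or more reads, 0 of 41, 0 of 41, 1 of 41 and 2 of 39 were at 0 in KO SC, KO TTC, WT SC and WT TTC. These were Rpl21, which encodes a protein of the large subunit, in both WT libraries and Rpl17 in WT TTC. Zfp genes, ribosomal protein genes and the whole table were not matched for expected reads above 5, so no difference between their shares is claimed. Of all 51 ribosomal protein genes listed, including those expected at fewer than 5 reads, 6, 7, 8 and 10 were at 0 in the same order of libraries. A 0 is for this reason given below as the listed value, and whether it reflects absent footprints or the unstated way in which start sites were counted was not tested. Of the 18 member calls reported below, 17 had a 0 in one of the paired libraries, against 43.8% of 2319 calls over all transcripts. Those calls were not matched to the members for number of reads, and some member calls share the same 0. The contrast is therefore not read as a trait of Zfp genes.

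**Figure D2:**
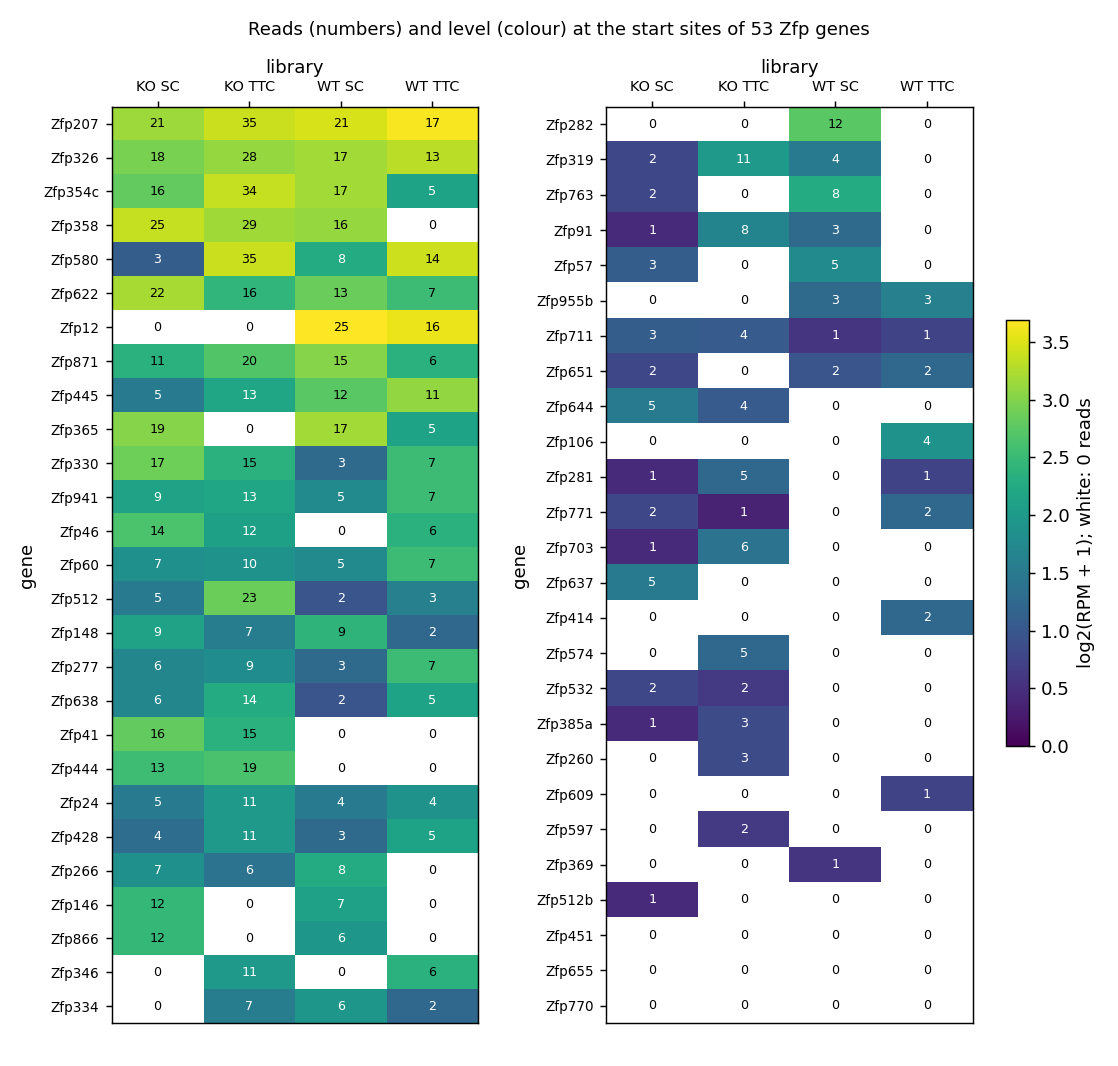
Each cell gives the reads (number) and the level (color, log2 of RPM plus 1) of a Zfp gene at its start site in a library, ordered by mean level. The top genes, such as Zfp207 with 17 to 35 reads, had reads in each library, while several neighbors such as Zfp12, Zfp41 and Zfp444 have white cells, which mark 0 reads, in 2 of the 4 libraries.

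The highest mean level was that of Zfp207, whose product BuGZ carries the checkpoint protein Bub3 to kinetochores and the spindle. It had 7.86, 9.57, 10.0 and 11.6 RPM in KO SC, KO TTC, WT SC and WT TTC (21, 35, 21 and 17 reads). Zfp326, a subunit of the DBIRD complex that couples transcript elongation to splicing, had 6.73, 7.66, 8.11 and 8.90 RPM in the same order. Both genes were lower in both KO libraries than in either WT library, but passed no test: adjusted p was 0.772 and 0.878 for Zfp207 in the SC and TTC pairs, and 0.888 and 0.976 for Zfp326, by the exact binomial test described below.

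Zfp354c, a KRAB-type gene, had 5.99, 9.30, 8.11 and 3.42 RPM in that order. Zfp622, the counterpart of the yeast factor Rei1 that acts late in the cytoplasmic assembly of the large ribosomal subunit, had 8.23, 4.38, 6.20 and 4.79 RPM in KO SC, KO TTC, WT SC and WT TTC. Zfp871, also KRAB-type, had 4.12, 5.47, 7.16 and 4.11 RPM. None of these genes was called in any pair, and for each the KO and WT ranges overlapped. Zfp445, which with Zfp57 protects genomic imprints through Trim28, had 1.87 and 3.56 RPM in KO neurons (SC, TTC), against 5.72 and 7.53 RPM in WT neurons. Its KO values lay below both WT values, yet neither pair passed the test (adjusted p 0.248 and 0.321). The rest of the 10 highest members were Zfp358, Zfp580, Zfp12 and Zfp365, which each had an unusual pattern and are described below. The 5 highest members of a library held 33.5% to 41.5% of its Zfp reads, and only 13, 20, 10 and 5 members reached 10 reads in KO SC, KO TTC, WT SC and WT TTC.

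The first question was whether Zfp start sites differed between Ltn1 KO and WT neurons. As a group they did not differ beyond counting error. In the SC pair their summed levels were 117 RPM (KO) and 125 RPM (WT), a ratio of 0.933 (95% interval 0.790 to 1.10). In the TTC pair they were 122 RPM (KO) and 117 RPM (WT), a ratio of 1.04 (0.874 to 1.25). These intervals cover counting error only, as do all intervals given here. In the SC pair 23 members were higher in KO, 20 were lower and 10 had no read in either library, and in the TTC pair the numbers were 22, 20 and 11. Of all transcripts, KO was above WT for 38.0% and below for 46.3% in the SC pair, and for 43.7% and 42.1% in the TTC pair. The median difference in log2(RPM + 1) was 0 over members and 0 over all transcripts in both pairs.

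Single members did differ. Reads of each library pair were compared by a 2-sided exact conditional binomial test, with Benjamini-Hochberg adjustment over every transcript with a read in the pair and a threshold of 0.05. With 1 library per condition, such a test compares 2 libraries and not the conditions, and nothing here has a replicate check. In the SC pair, 3 of the 43 members tested were called higher and 2 lower, where 2.63% and 4.74% of all 5355 transcripts tested were called. In the TTC pair, 2 of 42 members were called higher and 2 lower, against 3.14% and 4.41% of 5448 transcripts. With counts of 2 or 3, no difference from these background shares is claimed. Of the calls over all transcripts in the SC pair, 35.7% were higher, and 52.9% with median-of-ratios factors, a scaling that left the member calls of this pair in place. Zfp12 was called lower in both pairs and Zfp444 higher in both.

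Zfp12, a KRAB-type gene on chr5:143235138-143248834 of GRCm38.p6, had the clearest difference. It had 0 reads in both KO libraries, against 25 reads (11.9 RPM, interval 7.72 to 17.6) in WT SC and 16 reads (11.0 RPM, 6.26 to 17.8) in WT TTC. The WT libraries thus gave it among the highest Zfp levels, and neither KO library gave a read. Set against a floor of 3 reads in the KO library, it was at least 10.6-fold lower in KO neurons in the SC pair (adjusted p 3.74e-07) and at least 13.4-fold lower in the TTC pair (adjusted p 5.04e-07). Here and below, "at least" refers to that floor only. Such folds leave out the counting error of the library with reads and are not lower limits of the true fold. Reads in both WT libraries and none in either KO library, with at least 3 reads in each WT library, were found for only 0.252% of the 5955 transcripts with reads, and for 2 of 50 members. The second was Zfp955b, with 0, 0, 3 and 3 reads in KO SC, KO TTC, WT SC and WT TTC, too few for a call (adjusted p 0.347 and 0.165).

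The mirror pattern, with reads in both KO libraries and none in either WT library, was seen for 3 of 50 members and 1.38% of all transcripts. Zfp444, a gene on chr7:6172468-6193104 that encodes a SCAN-domain zinc finger protein, had 13 and 19 reads (4.86 and 5.20 RPM) in the KO libraries of the SC and TTC pairs, against 0 in both WT libraries. It was at least 3.40-fold higher in KO neurons in the SC pair (adjusted p 0.0192) and at least 2.53-fold higher in the TTC pair (adjusted p 0.0463). Zfp41, on chr15:75615200-75627448, had 16 and 15 reads (5.99 and 4.10 RPM) in those KO libraries, against 0 in both WT libraries. It was called in the SC pair (at least 4.18-fold higher, adjusted p 0.00452) and not in the TTC pair (at least 2.0-fold higher, adjusted p 0.0861), where the WT library is the shallowest. Zfp644, whose product works with the histone methyltransferases G9a and GLP, had 5 and 4 reads in the KO libraries against 0 in both WT libraries, and was not called.

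The promoters of Zfp12 and Zfp444 are shown because these genes gave the only calls of one direction in both pairs, opposite to each other. Each run has 250 bases before and 50 after an annotated RNA start, from RefSeq on GRCm38.p6, both on the plus strand, and capitals mark a GC box (GGGCGG on either strand), the site class bound by Sp1-type factors.
Zfp12, chr5:143234913-143235212: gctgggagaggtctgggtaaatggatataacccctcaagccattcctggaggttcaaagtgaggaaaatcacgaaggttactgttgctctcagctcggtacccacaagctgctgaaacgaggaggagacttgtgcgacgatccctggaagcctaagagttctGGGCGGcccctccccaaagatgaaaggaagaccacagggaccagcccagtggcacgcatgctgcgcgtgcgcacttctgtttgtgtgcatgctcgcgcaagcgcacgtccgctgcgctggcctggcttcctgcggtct
Zfp444, chr7:6172263-6172562: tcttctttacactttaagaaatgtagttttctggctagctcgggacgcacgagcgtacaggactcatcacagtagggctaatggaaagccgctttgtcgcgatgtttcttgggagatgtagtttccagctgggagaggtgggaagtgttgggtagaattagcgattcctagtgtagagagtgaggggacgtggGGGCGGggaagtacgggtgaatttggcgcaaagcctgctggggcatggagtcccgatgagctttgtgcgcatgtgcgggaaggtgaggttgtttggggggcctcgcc
Both windows held a single GC box, and no TATA box (TATAAA), ETS core (CCGGAA), NRF1 core (GCGCATGC) or YY1 core (AAGATGG) on either strand. G and C made up 58.0% and 54.3% of the bases. Windows were available for 44 of the 53 members, 53 windows in all. A GC box was in 56.6% of these windows and in 35.7% of all 32851 promoter windows, an ETS core in 28.3% and 14.9%, an NRF1 core in 9.43% and 2.71%, a YY1 core in 11.3% and 6.34%, and a TATA box in 11.3% and 13.6%. The median G and C content was 56.7% for member windows, 62.0% for windows of all genes in the table and 52.7% for all windows. A GC box was thus shared by genes with opposite patterns. Such matches describe the letters only. Motif shares were not counted over the windows of all genes in the table, so they do not set Zfp genes apart from other genes of the table.

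**Figure D3:**
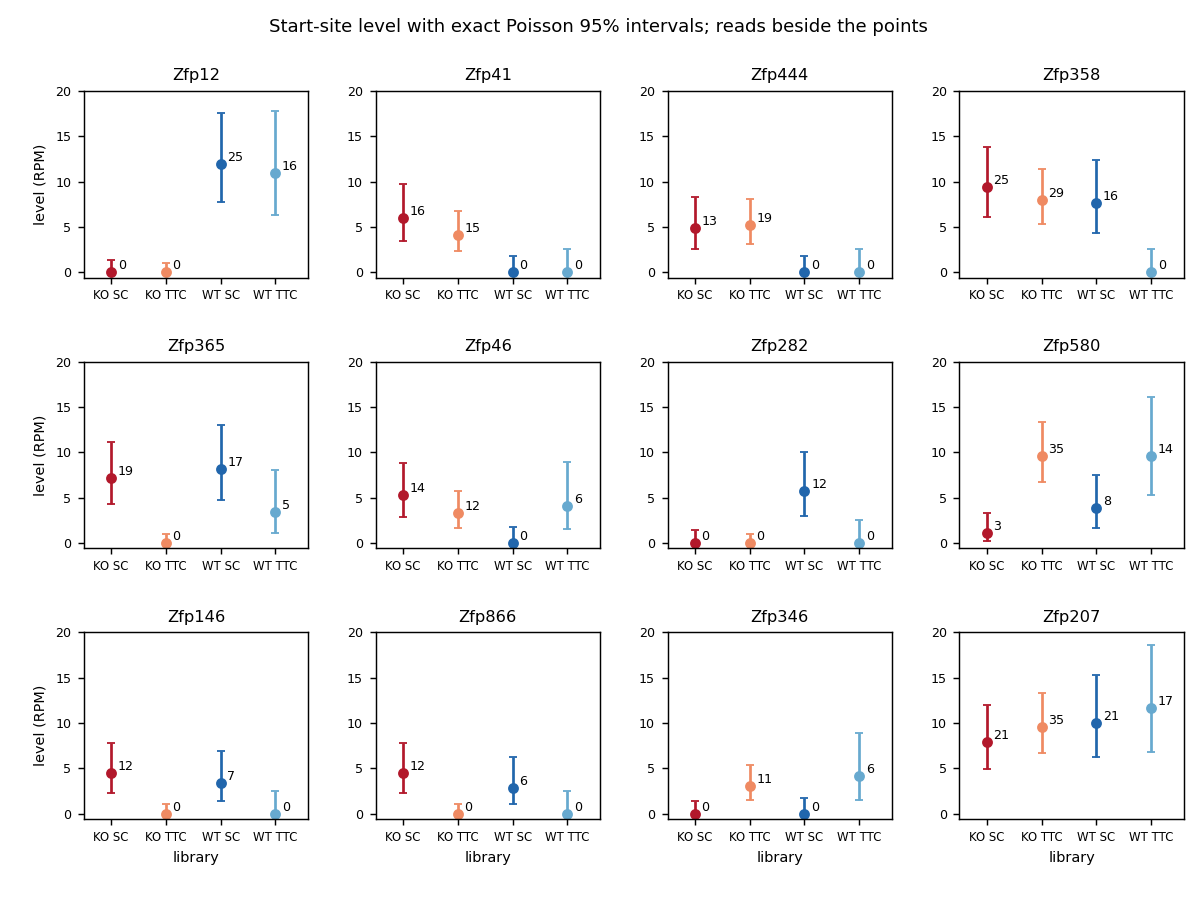
Start-site level (RPM) of each Zfp gene called in at least 1 library pair, with Zfp207 for comparison, in KO SC, KO TTC, WT SC and WT TTC. Points are single libraries, bars are exact Poisson 95% intervals and numbers are reads. Zfp12 lies at 0 in both KO libraries and at 11.9 and 11.0 RPM in the WT libraries, and Zfp41 and Zfp444 lie at 0 in both WT libraries only.

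Other calls held in a single genotype pair. Zfp282, which encodes the KRAB-type repressor known in humans as HUB1, had reads in WT SC only: 0 in both KO libraries, against 12 (5.72 RPM) in WT SC and 0 in WT TTC. It was at least 5.10-fold lower in KO neurons in the SC pair (adjusted p 0.00211), and with no read in either library the TTC pair gave no test. Zfp46, another KRAB-type gene, had 14, 12, 0 and 6 reads (5.24, 3.28, 0 and 4.11 RPM) in KO SC, KO TTC, WT SC and WT TTC. It was at least 3.66-fold higher in KO neurons in the SC pair (adjusted p 0.0118), while its fold in the TTC pair was 0.799 (adjusted p 0.905).

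Zfp358 showed its zero in a different library. It had 25, 29, 16 and 0 reads in KO SC, KO TTC, WT SC and WT TTC, or 9.35, 7.93, 7.63 and 0 RPM, so that WT TTC alone stood apart. In the TTC pair it was at least 3.86-fold higher in KO neurons (adjusted p 0.00374), and its fold in the SC pair was 1.23 (adjusted p 0.901). Zfp365, whose product DBZ binds Disc1 and sits at the centrosome, had 19, 0, 17 and 5 reads, or 7.11, 0, 8.11 and 3.42 RPM. Here KO TTC was the library at 0, at least 4.17-fold lower than WT TTC (adjusted p 0.0315), and the fold in the SC pair was 0.876 (adjusted p 0.964). None of these differences between pairs was tested.

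Differences of over 2-fold were seen for 2 of the 9 members with at least 20 reads in the SC pair and for 4 of the 11 in the TTC pair, against 13.4% and 15.9% of all transcripts with at least 20 reads. These members were few and were not matched to those transcripts for number of reads, so no excess is claimed. In the SC pair the lowest differences in log2(RPM + 1) were -3.69 for Zfp12 and -0.67 for Zfp871, while the highest were 0.36 for Zfp622 and 1.60 for Zfp330, a nucleolar protein gene. Zfp330 had 17 reads (KO, 6.36 RPM) against 3 (WT, 1.43 RPM) in the SC pair, and 15 (KO, 4.10 RPM) against 7 (WT, 4.79 RPM) in the TTC pair, and passed neither test (adjusted p 0.105 and 1). In the TTC pair, Zfp445 (-0.91) and Zfp941 (-0.35) were at the low end and Zfp512 (1.26) and Zfp358 (3.16) at the high end. Zfp941, of KRAB type, had 3.37, 3.56, 2.39 and 4.79 RPM in KO SC, KO TTC, WT SC and WT TTC, and Zfp512 had 1.87, 6.29, 0.954 and 2.05 RPM. Neither was called (adjusted p 0.912 and 0.335 in the TTC pair).

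Across both pairs, KO was higher than WT in 11 of 50 members with reads (22.0%, against 20.5% of all transcripts) and lower in 8 (16.0%, against 24.4%), and 16 members (32.0%) changed direction between pairs. Both KO libraries lay above both WT libraries for 8 members (16.0%), where 13.2% of all transcripts with reads did so: Zfp358, Zfp385a, Zfp41, Zfp444, Zfp532, Zfp644, Zfp703 and Zfp711. Both lay below for 6 members (12%), where 14.9% of all transcripts did so: Zfp12, Zfp207, Zfp326, Zfp445, Zfp651 and Zfp955b. These shares were close to those of the whole table.

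**Figure D4:**
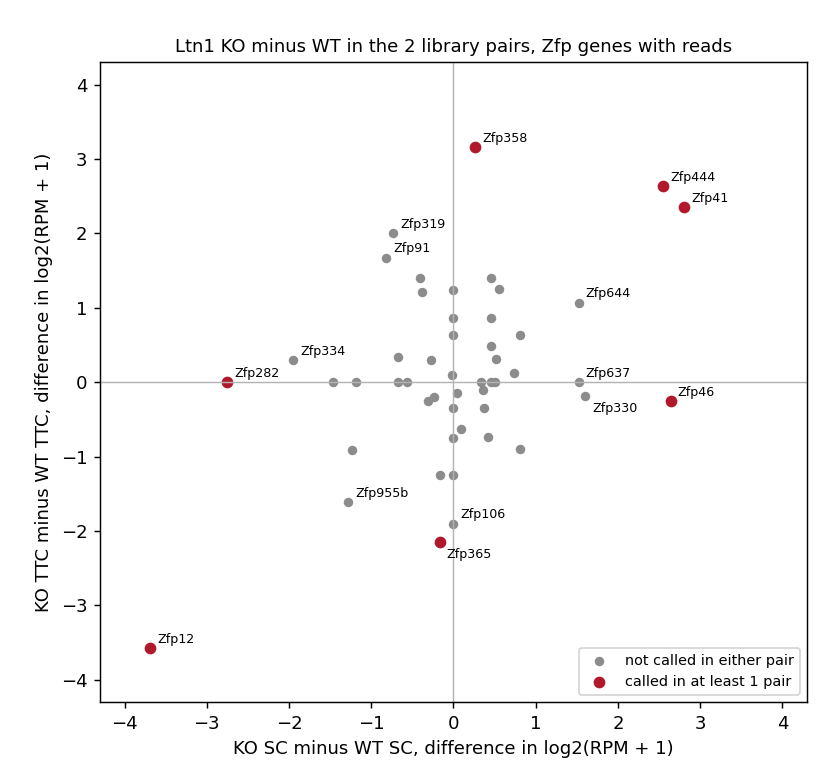
Difference in log2(RPM + 1) of KO SC minus WT SC (horizontal) and of KO TTC minus WT TTC (vertical) for the 50 Zfp genes with reads. Red points were called by the exact binomial test in at least 1 pair. Zfp12 (-3.69 and -3.58) and Zfp444 (2.55 and 2.63) lie far from 0 on both axes, whereas Zfp46 (2.64 and -0.25) and Zfp358 (0.26 and 3.16) lie far from 0 on 1 axis.

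An additive fit over the 4 libraries, with genotype and library code as terms, uses the disagreement between pairs as its error and has 1 residual degree of freedom. Of the 31 members with at least 10 reads in total, 0 were called by limma at an adjusted p of 0.05, and 0 of the 4585 transcripts tested were (0% called in either direction). At an unadjusted p under 0.05 limma gave 170 transcripts higher (3.71%) and 210 lower (4.58%) in KO, among them 3 members higher (Zfp41, Zfp444 and Zfp358) and 2 lower (Zfp12 and Zfp445). The smallest adjusted p of a member was 0.214, for Zfp12, whose fitted log2 difference was -3.64. The edgeR quasi-likelihood test on the recovered reads also called 0, and its unadjusted p was under 0.05 for 97 transcripts in the higher direction (2.12%) and 170 in the lower (3.71%), among them 2 members higher (Zfp41 and Zfp444) and 1 lower (Zfp12).

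Members were next grouped by role, from textbook knowledge, since no protein sequences were used. The 17 KRAB-type members summed to 32.2 and 32.0 RPM in the KO libraries (SC, TTC), against 61.1 and 43.1 RPM in the WT libraries. In the SC pair 4 of them were higher in KO (called: Zfp46) and 11 lower (called: Zfp12 and Zfp282), with a median difference of -0.56, where the median over all transcripts was 0. In the TTC pair 5 were higher (none called) and 6 lower (called: Zfp12), with a median of 0. Without Zfp12, left out after its values were seen, the sums were 32.2 and 32.0 RPM in the KO libraries against 49.1 and 32.2 RPM in the WT libraries, so that in the TTC pair the sums were nearly equal. Among KRAB-type genes at low level, Zfp57 had 3, 0, 5 and 0 reads and Zfp763 had 2, 0, 8 and 0 reads in KO SC, KO TTC, WT SC and WT TTC.

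The 8 members of transcription and chromatin complexes outside the KRAB class, among them Zfp148 (ZBP-89), Zfp24, Zfp281 and the intellectual disability gene Zfp711 (human ZNF711), had higher sums in the KO libraries. These were 9.73 and 10.7 RPM (SC, TTC), against 6.68 and 6.16 RPM in the WT libraries. They rested on few reads, 26 and 39 in the KO libraries against 14 and 9 in the WT libraries, and no interval was taken for their ratios. Of the 8, 5 were higher and 2 lower in the SC pair (median 0.46), and 7 were higher and 1 lower in the TTC pair (median 0.40), but none was called in either pair. A difference of 0.46 is that of 1 read in KO SC against 0 in WT SC, as for Zfp281 and Zfp703. The KO library was the deeper one in each pair, and these numbers were not taken at equal depth. The 6 members with RNA or ribosome roles, Zfp106, Zfp326, Zfp346, Zfp385a, Zfp622 and Zfp638, summed to 17.6 and 19.7 RPM in the KO libraries, against 15.3 and 24.0 RPM in the WT libraries, with no genotype call. The 4 genes of ubiquitin, SUMO, spindle or centrosome roles (Zfp91, Zfp451, Zfp207 and Zfp365) summed to 15.3 and 11.8 RPM (KO) against 19.6 and 15.1 RPM (WT), with Zfp365 as their only genotype call. The other 18 members summed to 42.3 and 48.1 RPM in the KO libraries, against 22.9 and 28.8 RPM in the WT libraries, and held the calls of Zfp41, Zfp444 and Zfp358, each higher in KO. The sums include these called genes and were not taken without them. Of the 18, 11 were higher and 3 lower in the SC pair (median 0.30), and 7 were higher and 7 lower in the TTC pair (median 0).

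Partners that KRAB-type proteins work with were measured for 21 of 25 listed genes. They summed to 68.1 and 84.2 RPM in the KO libraries, against 92.6 and 108 RPM in the WT libraries. In the SC pair 6 were higher and 11 lower, with none called, and in the TTC pair 9 were higher and 11 lower, with 1 call, Pphln1, a subunit of the HUSH silencing complex (7 and 20 reads in the KO libraries against 0 in both WT libraries, adjusted p 0.0315 in the TTC pair). Trim28 had 7, 10, 3 and 8 reads in KO SC, KO TTC, WT SC and WT TTC, and was called in neither pair. The lower KO sums lay largely in Hdac2 and Dnmt3a, which were not called either. Hdac2 had 10.8 and 10.9 RPM in the KO libraries (SC, TTC), against 20.5 and 19.2 RPM in the WT libraries. Dnmt3a had 15.0 and 17.8 RPM (KO) against 21.0 and 31.5 RPM (WT). The sums were not taken without these genes, so they do not show that the partners as a set were lower in KO.

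Markers of other cells differed with genotype and with library code. Each list below had lower sums in KO than in WT within a code, and lower sums in SC than in TTC within a genotype. Single markers varied: in the SC pair 2 astrocyte markers were higher in KO and 3 lower, and in the TTC pair 1 and 5. For oligodendrocyte-lineage markers the numbers were 1 and 5 in the SC pair and 2 and 4 in the TTC pair. For 6 of 7 astrocyte markers the summed levels were 37.8 and 69.2 RPM in the KO libraries (SC, TTC), against 76.3 and 87.6 RPM in the WT libraries. For 6 of 9 oligodendrocyte-lineage markers they were 12 and 39.7 RPM (KO) against 37.7 and 66.4 RPM (WT), and for 3 of 7 progenitor and cycling markers 6.73 and 18.1 RPM (KO) against 14.3 and 39.0 RPM (WT). Top2a, a marker of dividing cells, had 0 reads in both KO libraries against 8 and 6 reads in the WT libraries. Their part in the Zfp values was not tested. In bulk libraries of footprints, fewer cells of a type, less mRNA per cell and less initiation per mRNA cannot be told apart.

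The second question was whether the Zfp start sites differed between the SC-coded libraries, titled Ttc3 RNAi, and the TTC-coded libraries, titled Control RNAi. Again the sums did not differ beyond counting error. In KO neurons they were 117 RPM (SC) and 122 RPM (TTC), a ratio of 0.958 (0.826 to 1.11), and in WT neurons 125 RPM (SC) and 117 RPM (TTC), a ratio of 1.07 (0.881 to 1.31). In KO neurons 19 members were higher in SC, 24 lower and 10 without a read, and in WT neurons 17, 22 and 14. The median difference over members was 0 in both genotypes, where that over all transcripts was -0.04 in KO and 0 in WT. These pairs use the same 4 libraries as the genotype pairs, so the calls below share their zeros with those above. Marker sums of other cells were also lower in SC than in TTC, as given above, and their part here was not tested.

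In KO neurons, 3 of 43 members tested were called higher in SC and 2 lower, where 5.71% and 10.9% of 5623 transcripts were called. Of those calls over all transcripts 34.4% were higher, and 52.0% with median-of-ratios factors. Zfp365 was at least 8.66-fold higher in KO SC, with 7.11 RPM against 0 RPM in KO TTC (adjusted p 3.85e-06). Zfp146, whose product OZF consists almost wholly of fingers, had 12, 0, 7 and 0 reads in KO SC, KO TTC, WT SC and WT TTC, and the KRAB-type gene Zfp866 had 12, 0, 6 and 0. Both thus had reads in the SC-coded libraries only, and in KO neurons both were at least 5.47-fold higher in SC (adjusted p 0.000623 each). In WT neurons the same direction was not called for either (adjusted p 0.217 and 0.302).

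Zfp580 was the only called member with reads in both libraries of its pair. In KO neurons it had 3 reads (SC, 1.12 RPM) against 35 reads (TTC, 9.57 RPM), a fold of 0.117 (adjusted p 0.000118). In WT neurons it had 8 reads (SC, 3.82 RPM) against 14 reads (TTC, 9.59 RPM), a fold of 0.398 (adjusted p 0.224). Its level was therefore lower in the SC-coded library of both genotypes, and passed the test in KO only, though the difference between genotypes was not tested. Zfp346, whose product JAZ binds double-stranded RNA, had the opposite on and off pattern to Zfp146: 0 reads in both SC-coded libraries, against 11 reads (3.01 RPM) in KO TTC and 6 reads (4.11 RPM) in WT TTC. It was at least 2.68-fold lower in SC in KO neurons (adjusted p 0.0275) and at least 2.87-fold lower in WT neurons (adjusted p 0.0455).

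In WT neurons, 2 of 39 members were called higher in SC and 2 lower, where 3.82% and 7.02% of 5345 transcripts were called. Zfp282 was at least 2.79-fold higher in WT SC (adjusted p 0.0247) and Zfp358 at least 3.72-fold higher (adjusted p 0.00727), both against 0 in WT TTC. Zfp46 was lower, at least 2.87-fold against the floor (adjusted p 0.0455), with 0 reads in WT SC against 6 in WT TTC. The intervals of these levels overlapped, at 0 to 1.76 RPM in WT SC and 1.51 to 8.94 RPM in WT TTC. The 2 lower calls, Zfp346 and Zfp46, were both lost when the libraries were rescaled to the same sum on the listed sites, and with median-of-ratios factors.

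Reads in both SC-coded libraries and in neither TTC-coded one, with at least 3 in each, were found for 3 of 50 members (Zfp146, Zfp57 and Zfp866) and 1.65% of all transcripts with reads, and the reverse for 1 member (Zfp346) and 1.75%. Both SC-coded libraries lay above both TTC-coded ones for 8 members (16.0%, against 15.7% of all transcripts): Zfp146, Zfp148, Zfp266, Zfp365, Zfp57, Zfp622, Zfp763 and Zfp866. Both lay below for 10 members (20.0%, against 22.1%): Zfp24, Zfp277, Zfp281, Zfp346, Zfp428, Zfp512, Zfp580, Zfp60, Zfp638 and Zfp941. These shares, too, were close to those of the table. If the code letters and not the titles are right, each SC against TTC difference keeps its size and takes the opposite sign, and the genotype pairs exchange their RNAi labels.

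The remaining members had few reads. Those with reads in each library and no call, Zfp24, Zfp60, Zfp148, Zfp277, Zfp428, Zfp638 and Zfp711, had 1 to 14 reads in a library, and Zfp281, Zfp385a, Zfp532, Zfp651 and Zfp703 had 0 to 6. Zfp334, of KRAB type, had 0, 7, 6 and 2 reads in KO SC, KO TTC, WT SC and WT TTC, and Zfp266 had 7, 6, 8 and 0. Zfp319 had 2, 11, 4 and 0, Zfp771 had 2, 1, 0 and 2, and Zfp91, an E3 ligase gene, had 1, 8, 3 and 0. Members with reads in 1 library only were at 1 to 5 reads there, apart from Zfp282. These were Zfp260, Zfp369, Zfp414, Zfp512b, Zfp574, Zfp597 and Zfp637, and also Zfp609, a gene of cortical neuron migration, with 1 read in WT TTC, and Zfp106, an RNA-binding protein gene with a role in motor neurons, with 4 reads in WT TTC. Apart from Zfp282 none of these remaining members was called, and their zeros do not show absence.

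Several Zfp genes have close paralogs, and how reads that match more than 1 gene were counted is not given in the sources used here. The values of KRAB-type members with near copies, such as Zfp955b, are uncertain for that reason.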

How the data were processed

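Ribosome footprints of 4 libraries, 1 per condition, were analyzed as a table of 6352 transcripts. The authors deposited RPM values at start sites, scaled to all reads of a library. The submitters' processing notes name Bowtie, SAMtools, bedtools and GRCm38/mm10. The window counted, annotation and multi-mapping treatment are not given in the sources used here. Values stepped in units of 1 read (100% of 25408 values within 1e-06), from which whole reads were recovered. Depth was 1460425 to 3655827 reads.

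Symbols were joined by transcript identifier to the study's gene list (6349 transcripts matched; 38 identifiers with a surplus digit were mended, 0 of them members). The fold changes in that list were not used. Members were symbols matching Zfp and digits. Members, role lists and tests were chosen with earlier results of these data known.

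Each library pair was compared by a 2-sided exact binomial test on reads, with Benjamini-Hochberg adjustment at 0.05. Folds against 0 reads use a floor of 3 reads per library (0.821 to 2.05 RPM) and leave out the counting error of the other library. limma 3.58.1 was fitted on log2(RPM + 1) for transcripts with at least 10 reads, with edgeR 4.0.16 on recovered reads as the alternative (R 4.3.3). On the log2 scale a pseudocount of 1 RPM understates changes of low genes. Intervals are exact Poisson, 95%. The tests were checked on simulated data. Python 3.11.15 with scipy 1.17.1 was used. Genes named with all values were the 10 highest members by mean RPM, every called member, the 2 largest and 2 smallest differences in each genotype pair among members with at least 20 reads, members without reads, and members with reads in 1 genotype or 1 code only (at least 3 reads in each library). A few more were named after their values were seen. Alternatives were other scalings, thresholds, pseudocounts, read minimums and exchanged RNAi labels.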

Additional observations from a re-analysis of the deposited data

Results flagged for a closer look

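Zfp46 stood out because its differences had opposite signs. KO minus WT in log2(RPM + 1) was 2.64 for SC libraries but -0.25 for TTC libraries, a gap of 2.90. Equally, SC minus TTC was 0.54 in KO neurons and -2.35 in WT neurons, the same gap of 2.90, because both use the same 4 values (14, 12, 0 and 6 reads in KO SC, KO TTC, WT SC and WT TTC). With 1 library per condition the difference between pairs was not tested.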

How the results depend on the processing

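The 18 member calls were recomputed under 2 other scalings and a minimum of 10 reads, 51 values in all, of which 0 reversed and 47 kept their side of the threshold. The exceptions were Zfp46 and Zfp346 in WT SC over WT TTC, at -2.29 with libraries rescaled to the same sum and -2.27 with median-of-ratios factors, no longer called. Members called lower in WT SC over WT TTC were 2 as reported, 0 with the same sum, 0 with median-of-ratios factors and 0 with at least 10 reads in the pair. Members called lower in KO TTC over WT TTC were 2, and 1 with at least 10 reads in the pair, since Zfp365 has fewer. The share of higher calls over all transcripts depended on the scaling, at 35.7% in KO SC over WT SC and 52.9% with median-of-ratios factors, and 34.4% in KO SC over KO TTC and 52.0% with those factors. The additive fit called 0 members under each alternative run, edgeR included. Exchanged RNAi labels turned the sign of the SC over TTC differences by construction. Restricting members to proteins with a C2H2 motif was not run, as no proteins were used here. The additive fit, with the library code as a term, already compares KO with WT within each code, and there are no replicate numbers to use as a further block. Depth limits most members, whose medians were 1 to 5 reads.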
